A study of Mus musculus with 5 samples.

Results

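The clustered protocadherin genes are 57 of the 21774 protein-coding genes that RefSeq annotates on the main chromosomes of the mouse genome (mm10, GRCm38.p6). They were chosen by name and place: every protein-coding gene on chromosome 18 whose symbol starts with Pcdha, Pcdhb or Pcdhg. The 14 Pcdha genes lie between 36930285 and 37188897 (259 kb), the 22 Pcdhb genes between 37264998 and 37521419 (256 kb) and the 21 Pcdhg genes between 37661775 and 37841873 (180 kb), all on the plus strand. Each of the 57 genes has a single annotated transcription start site (TSS), from a curated mRNA, so that none passed or failed a filter on its annotation. Pcdhgb8, which RefSeq lists as a transcribed pseudogene, is not among them.

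Protocadherins of the clusters are cell surface proteins of the cadherin superfamily. In the Pcdha and Pcdhg clusters each gene has a promoter and a large first exon of its own, which is spliced to exons shared by the whole cluster, whereas a Pcdhb gene is a single coding exon. Neurons switch on a few of these promoters at random in each cell, which gives every neuron its own set of surface proteins and lets its branches tell self from non-self, while the C-type genes (Pcdhac1, Pcdhac2, Pcdhgc3, Pcdhgc4 and Pcdhgc5) are used more evenly. Choice of a promoter involves CTCF and cohesin, which bind at promoters and at enhancers that lie downstream of them, and DNA methylation of the promoters that are not used.

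Chromatin accessibility was measured by DNaseI-seq, which lists DNaseI hypersensitive sites (DHSs), the places where chromatin is open enough to be cut by the nuclease. The cells were differentiated in vitro from a single ES cell line (strain 129) with a GFP reporter of Brachyury, which was grown on embryonic fibroblasts beforehand. In all there were 5 sorted populations. Mesoderm (MES) was Bry.GFP+ and negative for Flk1, and hemangioblasts (HB) were positive for both. The hemogenic endothelium (HE) was sorted as Tie2+/Ckit+/CD41- and is also labelled Bry.GFP+. Hematopoietic progenitors (HP) were sorted by CD41, and macrophages (MAC), grown on from CD41+ cells, by CD11b. Each stage has 1 list of sites, that of MAC being labelled as replicates 1 and 2 together, so no value below has a replicate error and no difference between stages was tested. The lists give start and end positions alone, without read counts, and the read totals of the libraries were not used here, so a gene without a listed site is not shown to be closed. A site that fewer cells of a population have open and one that is less open in all cells cannot be told apart.

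The lists held 21949 (MES), 24729 (HB), 33305 (HE), 17734 (HP) and 37456 (MAC) sites, with median widths of 800, 900, 1200, 900 and 600 bp. Among the genes of the sorting and lineage markers, T had a site within 1 kb of a TSS in MES and HB, Tek in HE only, Itga2b in HE and HP, and Itgam and Csf1r in MAC only. For Csf1r the nearest HE site was 1712 bp away. Kit had one in all stages but MAC, and Kdr, which encodes Flk1, had one in all 5 stages, including the Flk1- MES population.

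To determine how many protocadherin promoters were accessible along the path from mesoderm to blood, a gene was counted as having a promoter site where a DHS came within 1 kb of its TSS. Most had none at any stage. No site was listed for 39 of the 57 genes (68.4%) in any of the 5 lists, against 34.3% of all protein-coding genes. The other 18 had a site in 1 stage (8 genes), 2 stages (6 genes), 3 stages (2 genes), 4 stages (1 gene, Pcdhgc4) or 5 stages (1 gene, Pcdhgc3). By contrast, 42.0% of all protein-coding genes had a promoter site in all 5 stages. Of the 285 combinations of gene and stage, 35 had a site.

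The stages differed in their counts. In MES, 6 of 57 members had a promoter site, or 10.5%, while 55.5% of all protein-coding genes had one. HB had 4 members (7.02%) against a background of 57.1%. HE had 16 members (28.1%), where the background was 59.9%. In HP there were again 4 members (7.02%), with 48.6% of all genes, and in MAC 5 members (8.77%), with 48.7% of all genes. HE thus listed more members than any other stage, and its share was still below that over all genes. The excess of HE was smaller where narrow sites were left out, and its size depended on the rule used. When every list was limited to its 17734 widest sites, as many as HP has, 3 (MES), 3 (HB), 4 (HE), 4 (HP) and 1 (MAC) members had a promoter site. The shares over all genes were then 52.6%, 52.5%, 51.7%, 48.6% and 38.7%. With sites narrower than the median of their own list left out, HE had the most members, 4 against 2 (MES), 2 (HB), 2 (HP) and 1 (MAC). The shares over all genes from MES to MAC were then 42.9%, 48.1%, 51.9%, 37.7% and 40.1%.

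**Figure D1:**
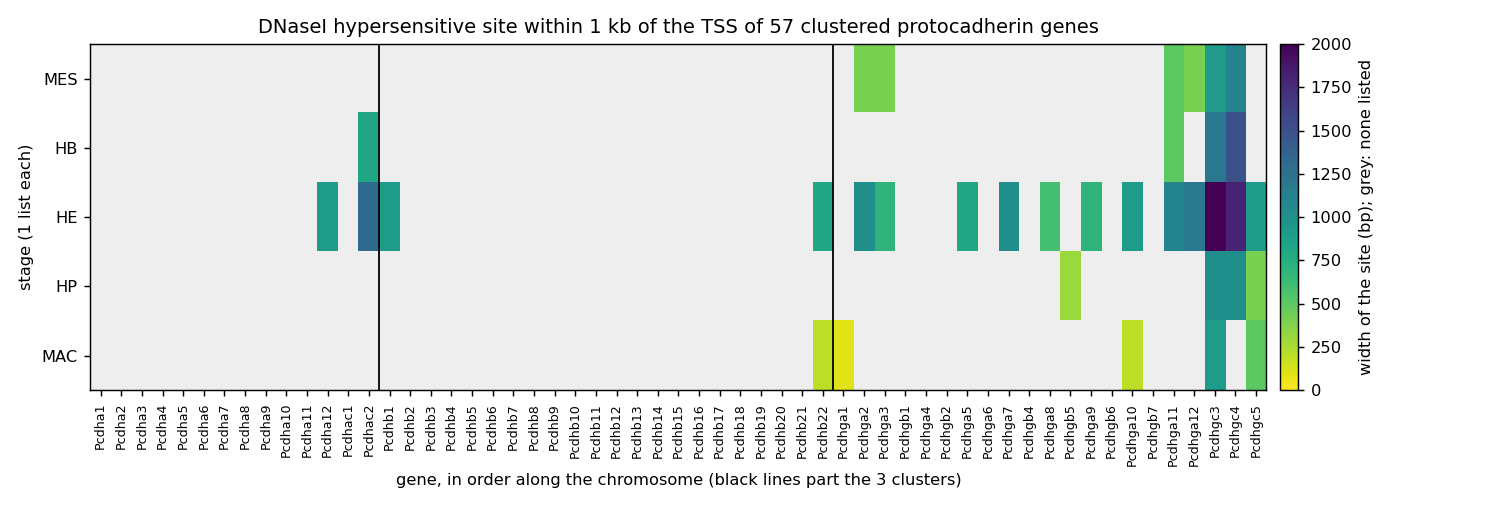
Promoter sites of the 57 genes (x axis, in order along the chromosome) in the 5 stages (y axis). Colour gives the width of the site in bp and grey means that none was listed. Sites gather at the right end, in the Pcdhg cluster, and the HE row holds 16 of the 35 sites.

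The calls changed little with the reach around the TSS. A reach of 100 bp left out Pcdhga12 in MES and Pcdha12 in HE, and one of 2 kb added none. In 31 of the 35 cases the TSS lay inside the site. The remaining gaps were 228 bp (Pcdhga12 in MES), 154 bp (Pcdha12 in HE) and 4 bp (Pcdhga12 in HE and Pcdhga1 in MAC), and the nearest site beyond the reach was 2565 bp from its TSS (Pcdhgc5 in HB). No site came within reach of more than 1 member. The middle of the sites lay at -146.5 to 603.5 bp from the TSS (negative values being upstream), with a median of 97.5 bp, and was downstream of the TSS in 24 cases.

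Of the 12 alternate genes of the alpha cluster, Pcdha1 to Pcdha12, 1 had a promoter site in any stage (8.33%, beside 65.7% of all protein-coding genes). Pcdha12, the last of them, had one in HE, at 37020384 to 37021283 (900 bp), which began 154 bp downstream of the TSS and had its middle in the coding exon. The other 11 had none in any stage. In the 140 kb from 50 kb before Pcdha1, the first gene of the cluster, to the Pcdha12 site, which holds 12 member TSSs, no list had a site.

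Both C-type genes of the alpha cluster have CpG-rich promoters (a GC share of at least 0.5 and an observed to expected CpG ratio of at least 0.6 in the 500 bp around the TSS), and they differed. For Pcdhac1 no site was listed in any stage. Pcdhac2 had a site over its TSS at 37143678 in HB (800 bp) and HE (1300 bp), and none in MES, HP or MAC. In the same 2 stages and no other, a site of 1000 bp was listed (37178111 to 37179110 in HB and 37178084 to 37179083 in HE), 34.9 kb downstream of the Pcdhac2 TSS in the intron before the last of the exons that all alpha genes share. Windows of 500 bp around the middle of each site were merged across stages into regions, and a region below is given by the span of its windows and the widths of its deposited sites. The region at 37217808 to 37218599, between the alpha and beta clusters, had sites in every stage but MAC, with widths of 1300, 1000, 1200 and 500 bp. RefSeq places it in no protocadherin gene, although the introns of 3 read-through models (Gm37013, Gm38666 and Gm38667) span it. Enhancers of the alpha cluster are known in neurons both downstream of the shared exons and in the intron before the last of them, but their coordinates were not used here and no site was assigned to them.

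Of the 22 Pcdhb genes, only the first and the last had a promoter site in any stage. The share was 9.09%, beside 65.7% of all protein-coding genes. Pcdhb1, whose TSS is at 37264998, had a site of 900 bp in HE. Pcdhb22, with its TSS at 37518353, had a site of 800 bp in HE and one of 200 bp in MAC. The 20 genes between them, Pcdhb2 to Pcdhb21, had none, and the 253 kb between the Pcdhb1 and Pcdhb22 sites held no listed DHS of any stage. This was the longest stretch without a site in the locus.

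In the Pcdhg cluster, 14 of 21 genes (66.7%) had a promoter site in at least 1 stage, close to the 65.7% of all protein-coding genes. The cluster interleaves genes of an A and a B subfamily, followed by 3 C-type genes, and the subfamilies differed. In HE, 9 of the 12 Pcdhga genes had a site (75.0%) and none of the 6 Pcdhgb genes did, beside 59.9% of all protein-coding genes and 34.9% of those whose promoter is not CpG-rich. With the 17734 widest sites of HE, Pcdhga12 was the one Pcdhga gene that had a site. Pcdhga2 and Pcdhga3 had sites of 400 bp each in MES and of 1000 and 700 bp in HE. Pcdhga5, Pcdhga7, Pcdhga8 and Pcdhga9 had a site in HE alone, of 800, 1000, 600 and 700 bp. These A genes flank B genes without one: in HE no site came within 3736 bp of the TSS of Pcdhgb7, the B gene with the nearest site.

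Further along the A series, Pcdhga10 had a site of 900 bp in HE and one of 200 bp in MAC. Pcdhga11 was the only alternate gene with a site in 3 stages, its width being 500 bp in MES and in HB and 1100 bp in HE. Pcdhga12 had 400 bp in MES and 1200 bp in HE. Pcdhga1, the first gene of the cluster, had a site of 100 bp in MAC that ended 4 bp before its TSS, and none in HE. Pcdhga4 and Pcdhga6 had none at all. Of the B subfamily, Pcdhgb5 had a site of 300 bp in HP, and Pcdhgb1, Pcdhgb2, Pcdhgb4, Pcdhgb6 and Pcdhgb7 had none. The pseudogene Pcdhgb8, which is left out of the count of Pcdhgb genes, carried a site over its start at 37761801 in HE and in no other stage. At 1200 bp it was as wide as the widest Pcdhga site in HE.

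The 3 C-type genes of the gamma cluster had a site in 5, 4 and 3 stages. Pcdhgc3 (TSS at 37806410) was the single member with a promoter site in every list, which measured 900, 1200, 2000, 1000 and 900 bp from MES to MAC. Pcdhgc4 (37815079) had sites of 1100, 1500, 1800 and 1000 bp from MES to HP and none in MAC, where the nearest site was 4093 bp away. For Pcdhgc5 (37819546), the last gene of the cluster, no site was listed in MES or HB, and its sites in HE, HP and MAC measured 900, 400 and 500 bp. The adjacent genes Pcdhgc4 and Pcdhgc5 thus had their sites at opposite ends of the sequence of stages, overlapping in HE and HP. Taking all 5 C-type genes, the number with a site was 2, 3, 4, 3 and 2 from MES to MAC (40.0%, 60.0%, 80.0%, 60.0% and 40.0%), on either side of the shares of all genes (55.5%, 57.1%, 59.9%, 48.6% and 48.7%). Over the 52 other members it was 4, 1, 12, 1 and 3.

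**Figure D2:**
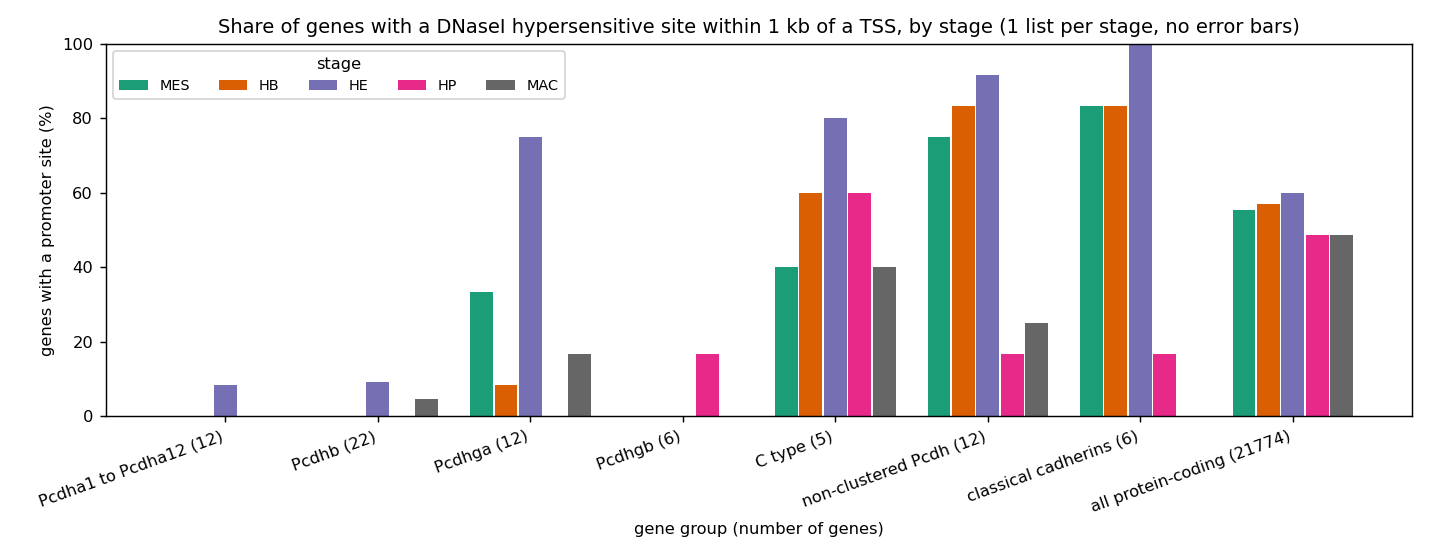
Share of genes (y axis, percent) with a promoter site in each stage, for the subfamilies of the clusters, 2 lists of related genes and all protein-coding genes, with the number of genes in brackets. Each bar is 1 list, so there are no error bars. Pcdhga genes reach 75.0% in HE, Pcdhgb genes (without the pseudogene Pcdhgb8) 0, and C-type genes lie between 40.0% and 80.0%.

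Changes between neighbouring stages were counted next, beside the share of all protein-coding genes that changed in the same direction. From MES to HB, 1 member gained a promoter site (1.75%, with 3.67% over all genes) and 3 lost one (5.26%, with 2.09%), namely Pcdhga2, Pcdhga3 and Pcdhga12. From HB to HE, 12 members gained a site (21.1%, with 5.73%) and none lost one (over all genes 2.98%). The 12 included the same 3 genes again and the C-type gene Pcdhgc5. From HE to HP, 13 members lost their site (22.8%, with 12.0%), and Pcdhgb5 was the only one to gain (1.75%, with 0.822%). Of the 16 members with a site in HE, Pcdhgc3, Pcdhgc4 and Pcdhgc5 were those that had one in HP. Over all genes, 10412 of the 13035 with a promoter site in HE had one in HP. From HP to MAC, Pcdhb22, Pcdhga1 and Pcdhga10 gained a site (5.26%, with 5.21%) and Pcdhgb5 and Pcdhgc4 lost theirs (3.51%, with 5.16%). A promoter site in HE and no other stage was found for 6 members (10.5%), against 3.03% of all genes: Pcdha12, Pcdhb1, Pcdhga5, Pcdhga7, Pcdhga8 and Pcdhga9. None of these 6 had a promoter site among the 17734 widest of HE. With every list limited to that number, Pcdhga12 was the only member to gain a site from HB to HE. From HE to HP, Pcdhac2 and Pcdhga12 then lost theirs, and Pcdhgb5 and Pcdhgc5 gained one. HE also had the highest median width of all 5 lists (1200 bp), and the part of that difference in these counts was not tested.

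Width is the one property of a site that the lists hold besides its place, and the sites of the alternate genes were narrow. In HE the 9 Pcdhga sites had a median of 900 bp (600 to 1200 bp), while promoter sites of all protein-coding genes had a median of 1600 bp in that list. The 4 C-type sites in HE had a median of 1550 bp. In MES the 4 Pcdhga sites were 400 to 500 bp wide and both C-type sites 900 and 1100 bp, where the median over all genes was 1000 bp. In MAC, 3 of the 5 member sites were at most 300 bp wide (Pcdhb22, Pcdhga1 and Pcdhga10), as were 823 of the 10602 promoter sites of all genes. When sites narrower than the median of their own list were left out, Pcdhgc3 and Pcdhgc4 had a promoter site in MES, HB and HP. In HE these genes, Pcdhac2 and Pcdhga12 had one, and in MAC Pcdhgc3 alone. The shares over all genes from MES to MAC were then 42.9%, 48.1%, 51.9%, 37.7% and 40.1%.

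**Figure D3:**
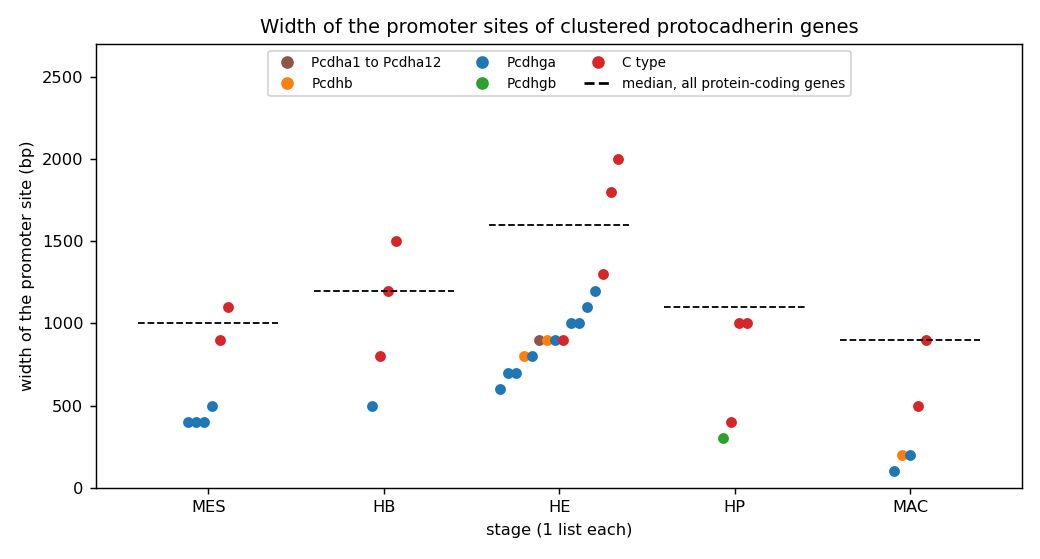
Width in bp (y axis) of each member's promoter site by stage (x axis), coloured by subfamily. Dashed lines mark the median promoter site over all protein-coding genes of the same list. Only Pcdhgc3 and Pcdhgc4 in HE, Pcdhgc4 in MES and HB lie above their line, and the 3 narrowest sites, of 100 to 200 bp, are in MAC.

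The sites of the whole locus, that is the 3 clusters and 50 kb on either side of each (971 kb in all), were then examined. From MES to MAC there were 16, 15, 28, 12 and 12. Per Mb this came to 16.5, 15.4, 28.8, 12.4 and 12.4, where the whole lists had 8.05, 9.07, 12.2, 6.51 and 13.7 sites per Mb of genome. With the 17734 widest sites of each list the locus held 12, 13, 11, 12 and 4, so that HE was no longer the highest. Without sites narrower than the median of their list it held 8, 9, 11, 3 and 4, HE being the highest. In the full lists, the sites were unequally spread. By the middle of each site, the gamma cluster held 10, 6, 15, 5 and 4 of them, which is 55.5, 33.3, 83.3, 27.8 and 22.2 per Mb. The alpha cluster held 0, 2, 3, 0 and 0, and the beta cluster 0, 0, 1, 0 and 1. The HE site at Pcdhb1 and the MAC site at Pcdhga1 have their middles just upstream of their clusters and are left out of these counts.

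Merging the sites of all stages gave 37 regions. Of these, 18 lay at member promoters, 1 at the TSS of Taf7, which encodes a subunit of the general transcription factor TFIID, and 18 elsewhere. The Taf7 region, between the beta and gamma clusters, was open in all 5 stages with widths of 900, 1200, 1800, 1200 and 1000 bp. For its neighbour Slc25a2, a mitochondrial carrier gene, the nearest site was the one at Taf7, over 4 kb away (4361 to 4985 bp). The 3 read-through models start with Pcdha4, Pcdha6 and Pcdha7 and had no promoter site. Of the 37 regions, 4 were open in all 5 stages (10.8%, where 13.2% of merged regions of the genome were), 8 in HE only (21.6%, with 17.1%) and 3 in MAC only (8.11%, with 31.0%). Where merging required 250 bp of overlap, 15 of 44 were open in HE only (34.1%, with 18.7% over the genome) and 5 in MAC only (11.4%, with 30.9%). Sites of MAC, the longest list, were few here: 0.0320% of the list fell in the locus, against 0.0841% of the HE list.

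**Figure D4:**
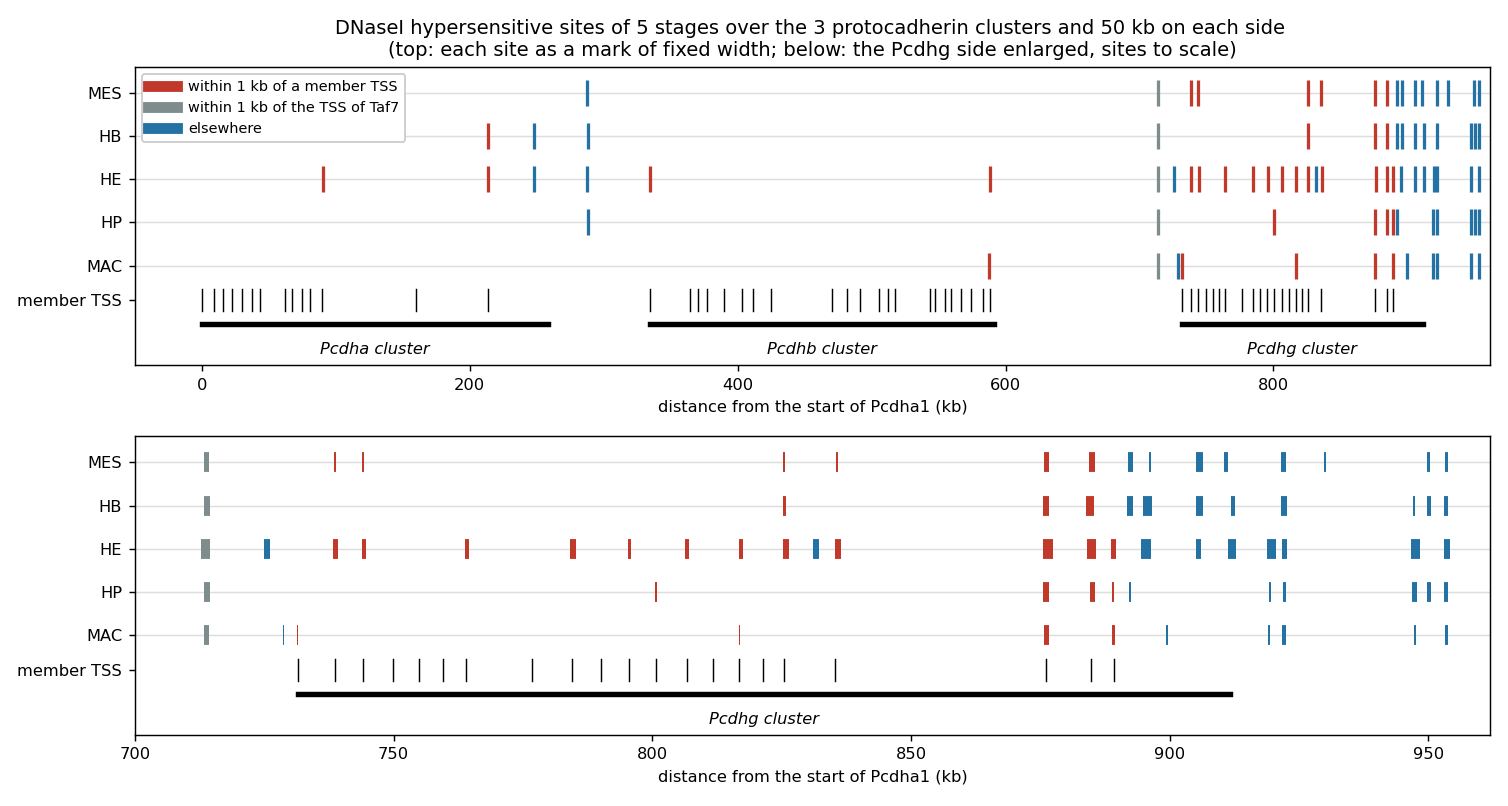
Sites of each stage along the locus, as distance in kb from the start of Pcdha1, with the TSSs of the 57 genes as ticks and the clusters as bars. Red marks sites within 1 kb of a member TSS, grey the site at Taf7 and blue all others. Blue sites crowd the end of the gamma cluster and the 50 kb after it, and the interior of the beta cluster is empty in all 5 stages.

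Regions away from promoters lay mainly at the downstream end. Only 4 of the 18 were before the first Pcdhg promoter: the pair on the alpha side described above, and a pair just upstream of Pcdhga1. Of the latter, one was open in HE (37655584 to 37656083, a site of 1100 bp) and the other in MAC (37658772 to 37659271, a site of 100 bp). The Pcdhgb8 site was the only one among the alternate gamma genes. Between Pcdhgc5 and the end of the shared gamma exons, 6 regions were listed. One at 37822361 to 37822957, 3.1 kb downstream of the Pcdhgc5 TSS, was open in MES, HB and HP. Another at 37825384 to 37826210 held sites of HB and HE, with widths of 1700 and 1900 bp (37825111 to 37826810 and 37824684 to 37826583). A MES site of 500 bp, at 37826208 to 37826707, was counted as a region of its own by the distance of the middles, although it lies inside the HB site and overlaps the HE site. The region at 37835634 to 37836357, in the intron between the second and the third shared exon, was open in MES, HB and HE (1400, 1500 and 1000 bp). A MES site at 37840708 to 37841607, of 900 bp, had its middle in the untranslated part of the last shared exon, and its end overlapped the HE site that begins at 37841484. The remaining region was a MAC site of 300 bp, at 37829572 to 37829871.

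Past the gamma cluster, 7 regions lay within 50 kb, of which 6 were in introns of Diaph1, a gene for an actin-nucleating formin that is read from the opposite strand. Those at 37852008 to 37852699 and 37883458 to 37884083 were open in all 5 stages, with widths of 700 to 1300 bp and 600 to 1100 bp. The region at 37877311 to 37878033 was open from HB on (300, 1600, 800 and 500 bp) and the one at 37849322 to 37850233 in HE, HP and MAC (1800, 300 and 400 bp). Enhancers of the gamma and beta genes are known in this stretch, and no site was assigned to them. An intergenic region at 37842084 to 37842860, next to the end of the cluster, was open in HB and HE (800 and 1700 bp). Stages without promoter sites over most of the cluster had listed sites downstream of the last promoter. HP had 6 and MAC 5 from Pcdhgc5 on, leaving out its promoter. Of these, 5 in HP and 4 in MAC lay past the end of the cluster, in introns of Diaph1.

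To see what the promoters share apart from their place, the sequence around each TSS was described. CpG-rich promoters were found for 9 of the 57 members (15.8%), against 44.2% of all protein-coding genes. They were Pcdha1, Pcdha10, Pcdha11, Pcdha12, Pcdhac1, Pcdhac2, Pcdhgb6, Pcdhgb7 and Pcdhgc3. Of the CpG-rich genes of the genome, 88.5% (MES), 90.2% (HB), 91.3% (HE), 80.6% (HP) and 78.2% (MAC) had a promoter site. Of the 9 CpG-rich members, 1, 2, 3, 1 and 1 did. Over genes that were not CpG-rich the shares were 29.4%, 30.8%, 34.9%, 23.3% and 25.3%, and over the 48 such members they were 10.4%, 4.17%, 27.1%, 6.25% and 8.33%. The median GC share of members was 44.9% and that of all genes 55.9%.

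The 4 letters CGCT form the core of an element common to many of these promoters. They were searched on both strands from 250 bp before to 50 bp after the TSS. They were present in 56 of 57 members (98.2%) and in 63.9% of all genes, Pcdhga12 being the member without them. The whole element was not searched, and the 4 letters alone do not show that a promoter carries it. A core consensus of CTCF, a zinc finger protein that sets the ends of chromatin loops, was searched within 500 bp of the TSS. It matched 3 members, against 3.30% of all genes. All 3 were alpha genes, Pcdha1, Pcdha8 and Pcdha12, with the match starting 459, 456 and 456 bp downstream of the TSS, inside the first exon. That of Pcdha12 fell within its HE site. In the central 500 bp of the 37 merged regions the consensus matched 2 (5.41%), beside 5.14% of all 68842 merged regions, the second being the region at 37883458 that was open in all stages. Over the full width of the deposited sites, the region at 37217808, between the alpha and beta clusters, and the MES site at 37840708, in the last shared gamma exon, each held a match too. A match is a run of letters and not a bound site, and the absence of one says nothing about CTCF at that place.

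Since the authors kept reads of 50 bases that aligned to a single place, and the genes resemble each other, the words of 50 bases within 500 bp of each TSS were compared with the whole genome. The share of words that occur once was 100% in the median member and at least 90% for 44 of 57. It reached 90% in 16 of the 18 members with a promoter site (lowest 85.2%) and in 28 of the 39 without one (lowest 75.0%). Among Pcdhb genes it was 89.8% to 100% with a median of 100%, so that the beta promoters without sites were almost all made of unique words. The alternate alpha genes had the lowest shares, with a median of 84.4% (75.0% to 94.9%), and Pcdha12, which had a site, had 85.2%. Among Pcdhga genes the share was 97.7% to 100%. For Pcdhgb genes it was 80.7% to 100% with a median of 92.3%, and Pcdhgb1 and Pcdhgb2, both at 100%, had no site. How many reads were lost in repeated words was not tested.

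Finally, related genes were counted in the same way, from lists with earlier results of these data known. The 12 non-clustered protocadherins, which have separate loci and homophilic adhesion roles of their own, had promoter sites in 9 (MES), 10 (HB), 11 (HE), 2 (HP) and 3 (MAC) cases, or 75.0%, 83.3%, 91.7%, 16.7% and 25.0%, beside 55.5%, 57.1%, 59.9%, 48.6% and 48.7% of all protein-coding genes. Pcdh8 and Pcdh17 kept theirs in HP, and Pcdh11x was the one without a site in any stage. Pcdh12, an endothelial protocadherin, had its TSS inside a site in HB and HE and none within 11 kb in the other stages (11899 to 12007 bp). Of 6 classical cadherins, 5, 5, 6, 1 and 0 had one, or 83.3%, 83.3%, 100%, 16.7% and 0%, beside the same shares of all genes. Cdh5, which encodes VE-cadherin, had a promoter site in HE only, although its nearest sites in HP and MAC were 1671 and 1988 bp away. Cdh11 was the classical cadherin gene with a site in HP.

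Factors that act on the clusters were counted last. Of 15 genes for CTCF, cohesin and its loaders and for silencing factors, 14, 15, 15, 13 and 14 had a site in the 5 stages, and 13 (86.7%) had one in all of them, among them Ctcf, Rad21 and Smchd1, where 42.0% of all genes did. The exceptions were Dnmt3b, a de novo DNA methyltransferase, with a site in HB and HE only, and Nipbl, the cohesin loader, whose nearest HP site was 1389 bp away. Among partners of clustered protocadherins, the kinase gene Ptk2, Pdcd10 and the protease gene Adam10 had a site in all 5 stages, Ptk2b in HE and MAC, and the receptor gene Ret in HB alone.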

How the data were processed

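Per the study's methods, the authors removed adapters and low-quality bases (CutAdapt) and mapped the reads of 50 bases to mm10 with Bowtie. Only reads with 1 place in the genome were retained, Picard took out duplicates, and DFilter called the sites. Versions were not given in the sources used here. What the authors deposited for each stage is 1 list of intervals, given by chromosome, start and end in bp. The lists hold no counts or scores. The study gives aligned read totals, which were not used here, and no precision per sample was derived. The cells are of strain 129 and the reference is C57BL/6J.

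Genes, exons and TSSs came from RefSeq for GRCm38.p6. A promoter site is a deposited interval within 1 kb of any annotated TSS. The background is the same call over 21774 protein-coding genes. Windows of 500 bp around the middle of each site were merged across stages where they overlapped by at least 125 bp. Words of 50 bases were counted on both strands of chromosomes 1 to 19, X and Y. Calls and merging were tested on made-up sites with known answers. Python 3.11.15 with numpy 2.4.6 was used.

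The members and lists were chosen with earlier results of these data known. Genes named are those with a site, the C-type genes, the first and last of each cluster and their neighbours. Others were named after their values were seen. Alternatives were other reaches, TSS sets, merging rules, and wider sites. No test between stages was possible with 1 list each.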

Additional observations from a re-analysis of the deposited data

How the results depend on the processing

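With a reach of 100 bp or 2 kb, with TSSs of curated mRNAs or with the gene's start alone, the count of members with a promoter site in each stage stayed within 1.5 times the reported one. Width mattered more. When sites narrower than their list's median were left out, members with a site numbered 2 (MES), 2 (HB), 4 (HE), 2 (HP) and 1 (MAC). The shares over all genes were then 42.9%, 48.1%, 51.9%, 37.7% and 40.1%. Sites in the locus numbered 8, 9, 11, 3 and 4, and merged regions 17, of which 2 were open in all 5 stages (11.8%, with 18.1% over the genome). When each list was limited to its 17734 widest sites, members with a site were 3, 3, 4, 4 and 1 from MES to MAC. The shares over all genes were then 52.6%, 52.5%, 51.7%, 48.6% and 38.7%. Sites in the locus were 12, 13, 11, 12 and 4, so that HE lost its higher count in the locus and shared that of members with HP. Both alternatives leave out sites by construction. Within the clusters alone, by the middle of each site, there were 10, 8, 19, 5 and 5 sites from MES to MAC, HE being the highest there. Where merging required 250 bp of overlap, regions open in HE only numbered 15 of 44 instead of 8 of 37, and those open in MAC only 5 instead of 3. With sites narrower than the median left out, 6 of 17 were open in HE only (35.3%, with 18.3% over the genome). In MAC only there was 1 (5.88%, with 29.7%). No value could be checked against a replicate. Depth, which the lists do not hold and which was not used here, limits any reading of a gene without a site.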
